A study of Ovis aries with 16 samples.

Results

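Genes of the sarcomere and of muscle fibre type were listed by symbol, and their values in vastus lateralis muscle were compared between sheep exposed to bisphenol A (BPA) before birth and control sheep, with liver of the same animals as background. Of the 40 genes listed, 39 were found among the 28524 genes of the deposited table. Of these, 38 were found by symbol and 1, MYOZ1, by its gene number. The myosin heavy chain gene MYH4 was not analysed here. They were picked by symbol, and the list was drawn up with earlier results of these data known. The 39 genes were grouped by place in the sarcomere into 10 of the thick filament, 14 of the thin filament, 11 of the Z-disc and its linkers, and 4 of the M-band and titin. By fibre type, 11 were fast isoforms, 9 were slow isoforms and the rest were assigned to neither.

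The sarcomere is the contractile unit of striated muscle, in which thick filaments of myosin slide along thin filaments of actin. Calcium binding to the troponin complex moves tropomyosin and opens the thin filament to myosin, while titin, nebulin, the Z-disc and the M-band hold the filaments in register. Many sarcomere proteins exist as fast and slow isoforms encoded by separate genes, and their balance follows the mix of fast-twitch and slow-twitch fibres in a muscle.

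Female Suffolk sheep were born to mothers treated with BPA, an oestrogen-like plasticizer, at 0.5 mg/kg/day under the skin from gestation day 30 to day 90, or corn oil alone. Muscle from 4 BPA sheep (numbers 910, 918, 977 and 984) was set against muscle from 4 control sheep (numbers 902, 908, 924 and 928), and liver of the same 8 animals was sequenced as well. All animals were taken at about 21 months of age after a fast of 48 hours, late in the follicular phase, after oestrus had been synchronized. In units of 1e6 reads (M), muscle libraries held 15.15 to 26.54 M in BPA sheep and 16.16 to 28.54 M in controls, and liver libraries held 4.66 to 17.92 M in BPA sheep and 4.39 to 19.28 M in controls. Values are normalized read counts, that is reads divided by 1 size factor per library. Transcript lengths were not used, so the level of 1 gene is not compared with that of another. Values by animal are given in the order of the sheep numbers above.

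The 39 genes together took 38.0 to 43.4% of all reads in BPA muscles and 38.6 to 45.7% in control muscles. Titin (TTN), the spring that spans from Z-disc to M-band, alone took 14.3 to 20.4% of reads in BPA muscles and 15.5 to 21.2% in control muscles. In livers the 39 genes took 0.0161 to 0.0484% of reads in BPA sheep and 0.0165 to 0.0984% in controls. All 39 were higher in muscle than in liver in limma with an adjusted p under 0.05, against 35.3% of all 15995 genes tested. Log2 differences, muscle minus liver, ran between 4.07 for the M-band gene MYOM3 and 16.97 for the fast myosin heavy chain gene MYH1. Whether muscle and liver were scaled together is not given in the sources used here. Normalized totals were 18795115 to 23336075 in muscles and 8275897 to 13697989 in livers, so differences between the tissues depend on the scaling.

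**Figure D1:**
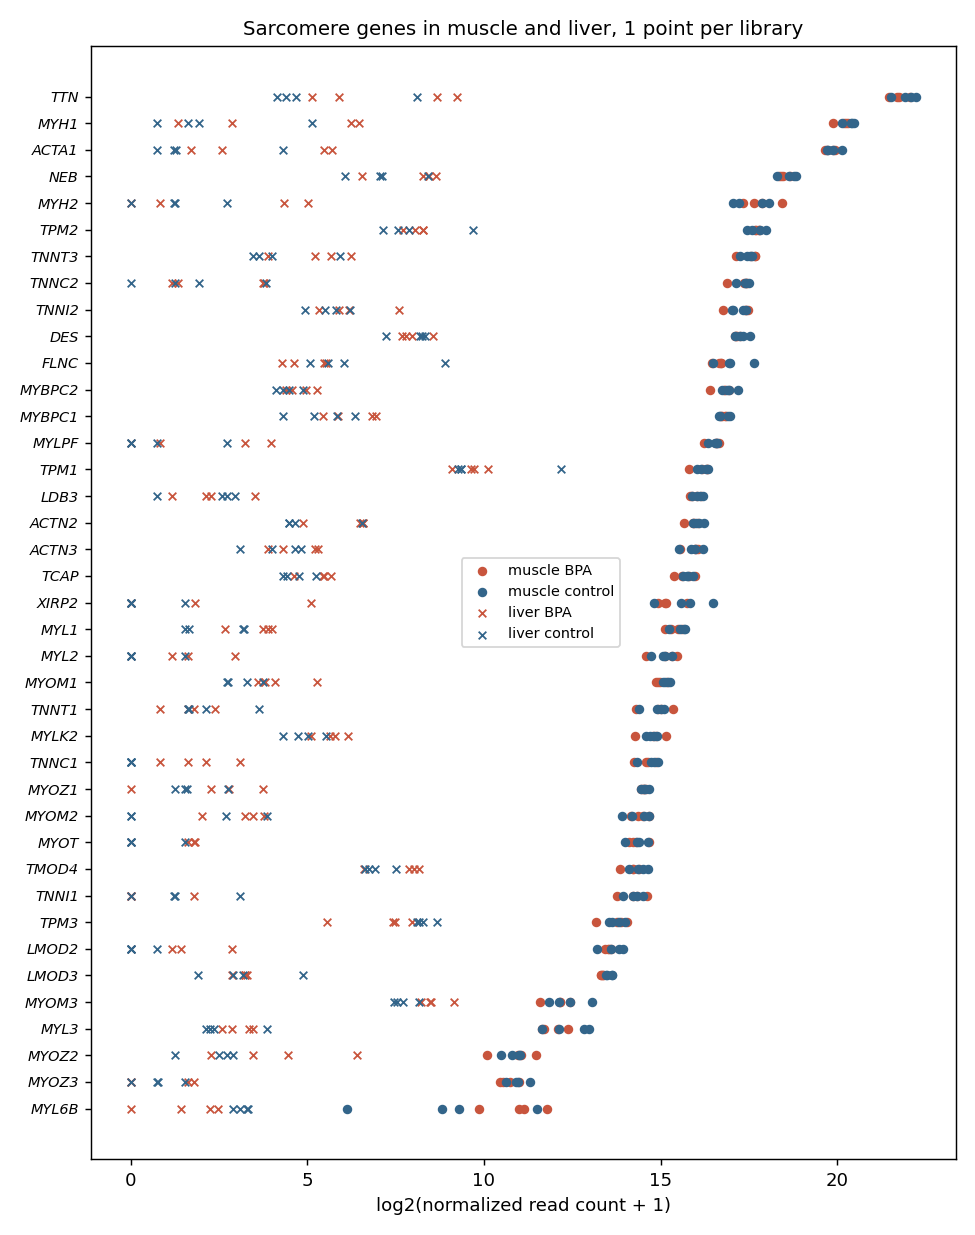
Each of the 39 genes (rows, ordered by mean level in muscle) is shown in each library on a scale of log2(normalized read count + 1), with muscle as filled circles, liver as crosses, BPA in red and control in blue. Muscle lay above liver for each gene, and the BPA and control muscles were interspersed for most.

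In muscle, no sarcomere gene passed the test between BPA and control sheep. With limma and Benjamini-Hochberg adjustment over all 14706 genes tested, 0 of the 39 were called, and edgeR and DESeq2 on recovered reads also called 0 of 39. Over all genes tested limma called 19, or 0.129%. At an unadjusted p under 0.05, limma marked 2 of the 39 (5.13%), LMOD3 and MYL6B, against 7.77% of all genes tested. By the same measure edgeR marked 1 of the 39 and DESeq2 marked 2. Over all 14706 genes tested edgeR marked 1180 and DESeq2 marked 1106. The groups did not overlap in 1 of the 39, LMOD3, against 4.53% of all genes tested. Estimates lay below 0, that is lower in BPA, for 29 of the 39 (74.4%) and for 50.5% of all genes tested. The median log2 difference was -0.08 over the 39 and -0.002 over all genes tested. Of the 39, 24 had a 95% interval wholly within 0.5 log2 units of 0 and 35 had one within 1 log2 unit. In whole muscle, fewer fibres of a type and less RNA per fibre cannot be told apart.

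**Figure D2:**
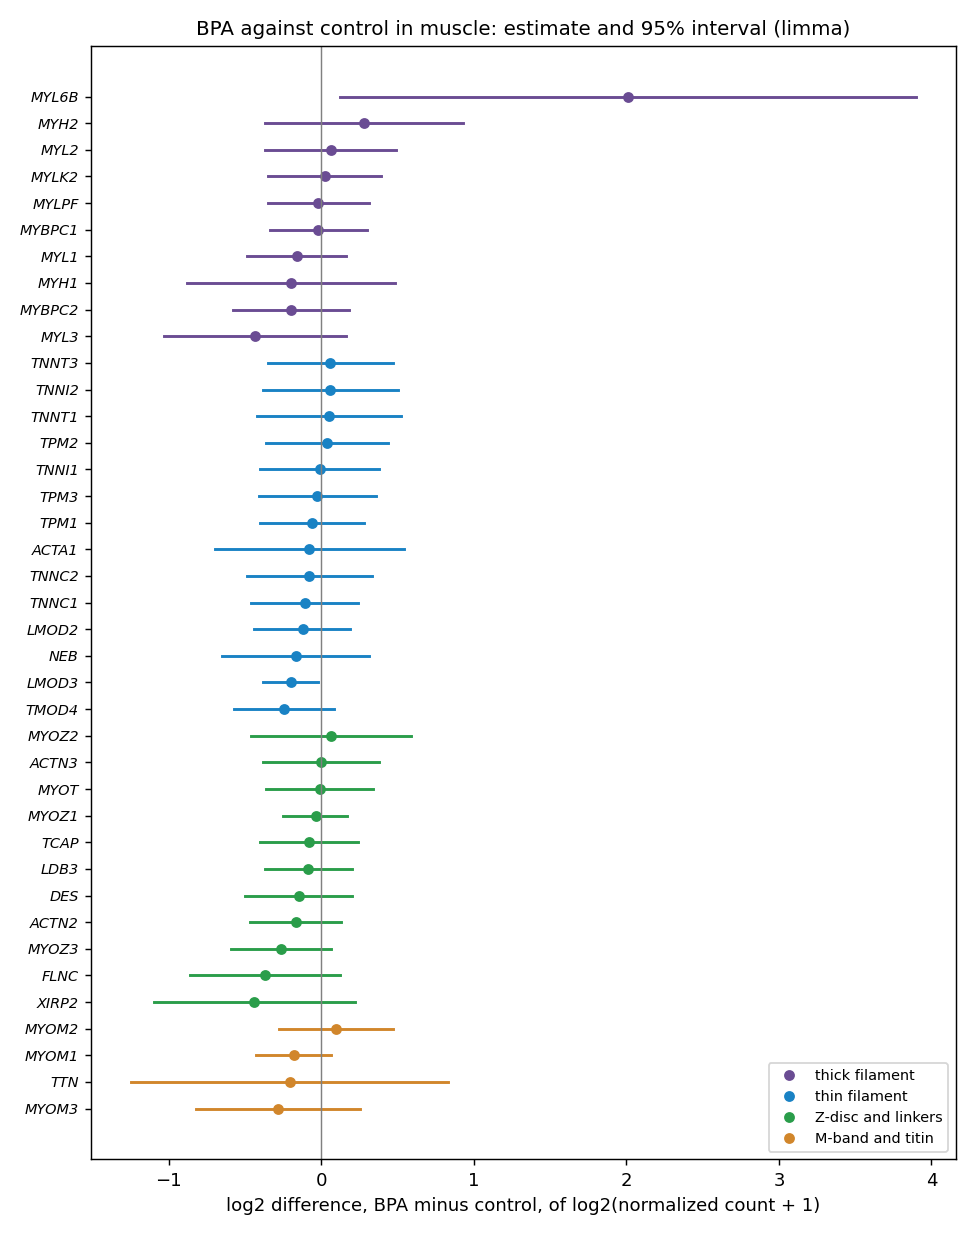
The log2 difference between BPA and control muscle (BPA minus control) is shown for each of the 39 genes as a point with its 95% interval from limma, coloured by place in the sarcomere. Intervals of MYL6B and LMOD3 lie clear of 0 before adjustment for the number of genes tested, and the MYL6B interval is the widest.

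Among the thick filament genes, 4 of 10 estimates were above 0 and 6 below, and none was called. MYH1, which encodes the fast IIx myosin heavy chain, measured 968898, 1306185, 1245619 and 1201704 in BPA muscles, against 1158202, 1384266, 1391790 and 1469483 in control muscles. BPA 910 was the lowest of the 8 and the groups overlapped (log2 difference -0.20, SE 0.311, limma adjusted p = 0.914). MYH2, which encodes the fast IIa heavy chain, measured 358748, 166742, 203275 and 240593 in BPA muscles, against 151737, 241118, 135383 and 273480 in control muscles. BPA 910 was here the highest of the 8, and the difference was 0.28 (SE 0.296, limma adjusted p = 0.856). The log2 ratio of MYH1 to MYH2 was 1.43, 2.97, 2.62 and 2.32 in BPA muscles, against 2.93, 2.52, 3.36 and 2.43 in control muscles. The ratio in BPA 910 stood below the other 7, and the group means were 2.33 ± 0.66 in BPA and 2.81 ± 0.43 in controls (SD, n = 4 each). Their difference of -0.48 was -0.18 without BPA 910, -0.29 without control 924 and -0.69 without BPA 918. These heavy chain genes are close in sequence, and how reads matching several of them were counted is not given in the sources used here.

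The regulatory light chains bind the neck of the myosin head, and their fast form, MYLPF, measured 76592, 97722, 103840 and 97334 in BPA muscles, against 100060, 83244, 96128 and 99986 in control muscles. Its slow counterpart MYL2 measured 40929, 45158, 24479 and 35718 in BPA muscles, against 27044, 35929, 34085 and 41269 in control muscles. Both overlapped between groups, and MYL2 was at its lowest in BPA 977 and its highest in BPA 918. The essential light chains sit beside them, and the fast form MYL1 measured 35759, 49464, 45773 and 40424 in BPA muscles, against 53294, 38383, 52128 and 48060 in control muscles. MYL3, the slow and ventricular form, measured 3359, 5331, 3183 and 4421 in BPA muscles, against 3190, 7305, 8031 and 4495 in control muscles. The 2 highest MYL3 values were both in controls, yet control 902 lay beside the lowest BPA muscles (log2 difference -0.43, SE 0.27, limma adjusted p = 0.754).

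MYL6B, another essential light chain of slow muscle, had the widest spread of the 39. It measured 2023, 3542, 934.8 and 2229 in BPA muscles, against 444.4, 69.1, 620.8 and 2915 in control muscles. The highest of the 8 exceeded the lowest 51.3-fold, control 928 lay within the BPA range, and the other 3 controls lay below all 4 BPA muscles. The log2 difference was 2.01 (SE 0.861, 95% interval 0.12 to 3.90, limma adjusted p = 0.605). It was 1.08 without control 908 and 2.87 without control 928 (limma adjusted p = 0.220), and edgeR gave 1.11. MYL6, the next gene along in RefSeq and expressed outside muscle too, measured 1953, 1671, 1802 and 1966 in BPA muscles, against 1660, 1596, 1598 and 1697 in control muscles, with a limma adjusted p of 0.648.

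Myosin-binding protein C links myosin to actin and tunes contraction. Its fast form MYBPC2 measured 85880, 115234, 126300 and 114025 in BPA muscles, against 126725, 108808, 119823 and 149832 in control muscles. MYBPC1, listed here as the slow form, measured 116852, 119031, 106884 and 109340 in BPA muscles, against 127220, 105715, 103953 and 123054 in control muscles. It was highest in control 902, where the 9 slow isoforms had a median deviation of -0.366 log2 units from the mean of the 8 muscles. MYBPC1 varied little, with a coefficient of variation of 7.65% over the 8 muscles, and MYBPC2 was lowest in BPA 910. MYLK2, the kinase that phosphorylates the regulatory light chain in skeletal muscle, averaged 28673 ± 6884 in BPA and 27659 ± 2524 in controls (SD, n = 4 each).

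**Figure D3:**
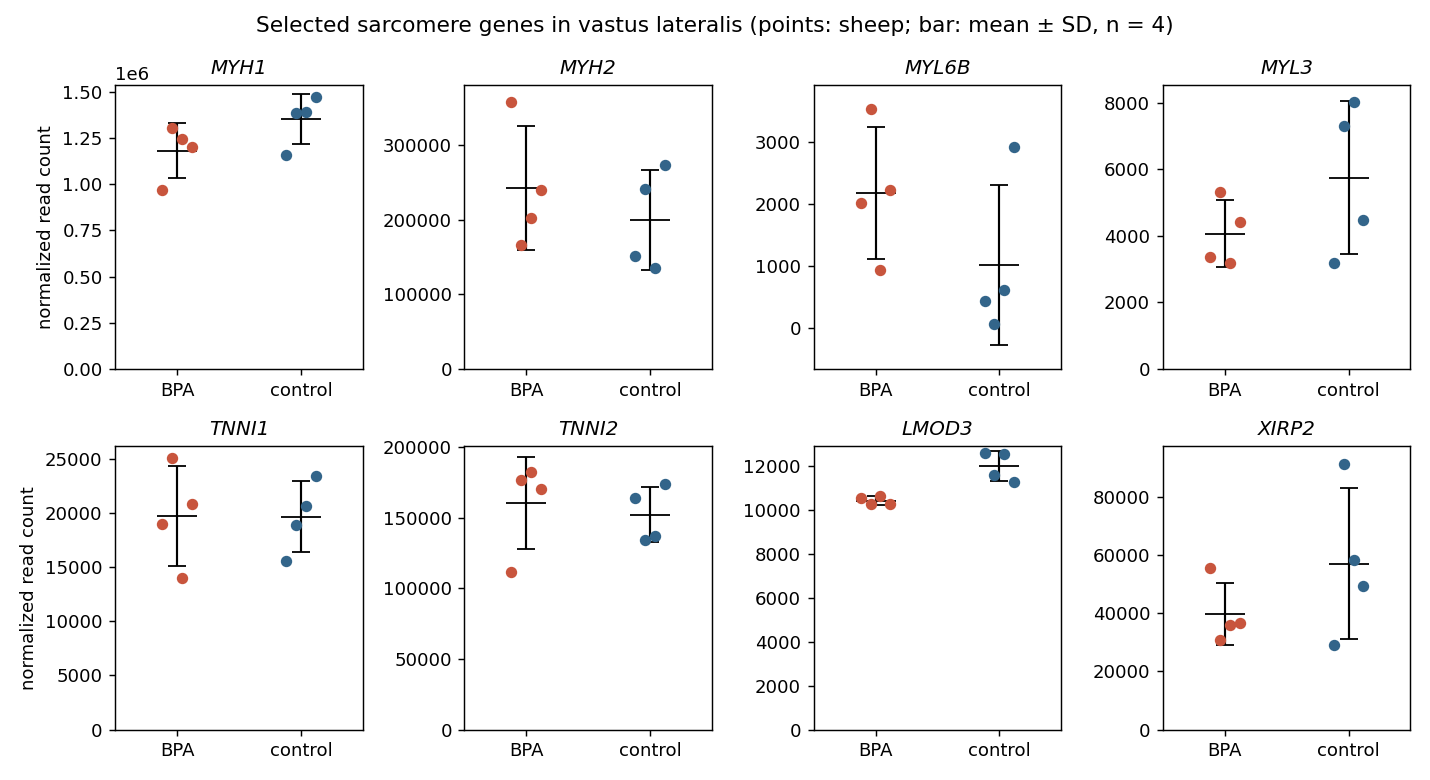
Normalized read counts of 8 genes are plotted per sheep (points), with BPA left of control and the bar giving mean ± SD over 4 animals, each axis starting at or below 0. LMOD3 alone separates the groups, and MYL6B in controls spans values between 69.1 and 2915.

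Among the thin filament genes, 4 of 14 estimates were above 0 and 10 below, and none was called. Troponin C binds calcium. TNNC2, its fast form, measured 119879, 176606, 178421 and 168417 in BPA muscles, against 175443, 142958, 173529 and 184185 in control muscles. TNNC1, the slow and cardiac form, measured 24423, 30070, 19557 and 25638 in BPA muscles, against 20658, 28641, 26944 and 31057 in control muscles. TNNC2 was lowest in BPA 910 and TNNC1 in BPA 977, and both overlapped between groups.

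Troponin I holds the thin filament in its blocked state. TNNI2, its fast form, measured 111913, 176524, 182416 and 170238 in BPA muscles, against 163689, 134162, 136939 and 173702 in control muscles. TNNI1, its slow form, measured 18954, 25087, 14011 and 20801 in BPA muscles, against 15567, 18904, 20636 and 23434 in control muscles. The TNNI1 groups spanned much the same range, with means of 19713 ± 4588 in BPA and 19636 ± 3292 in controls (SD, n = 4 each). Troponin T anchors the complex to tropomyosin, and its fast gene TNNT3 measured 144284, 211217, 208365 and 193582 in BPA muscles, against 190231, 154489, 179785 and 197796 in control muscles. TNNT1, the slow gene, measured 31447, 41491, 20359 and 33003 in BPA muscles, against 21653, 30554, 33145 and 35123 in control muscles. TNNT1 held both its extremes within the BPA group, BPA 977 at the bottom and BPA 918 at the top.

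Tropomyosin lies along actin and is moved by troponin. TPM1, the fast form, measured 56844, 80771, 81308 and 74179 in BPA muscles, against 80674, 67395, 72121 and 83249 in control muscles. TPM3, the slow form, measured 15077, 17022, 9223 and 13934 in BPA muscles, against 11867, 14528, 12749 and 16156 in control muscles. TPM3 followed TNNI1 and TNNT1 in being lowest in BPA 977 and highest in BPA 918. TPM2, a tropomyosin of both fibre types, averaged 219629 ± 9290 in BPA and 215666 ± 35824 in controls, and skeletal actin (ACTA1) averaged 912166 ± 88100 in BPA and 968366 ± 136929 in controls (SD, n = 4 each). Nebulin (NEB), the giant protein along the thin filament, averaged 365393 ± 33362 in BPA and 413109 ± 65199 in controls (SD, n = 4 each).

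LMOD3 encodes leiomodin 3, which nucleates actin and sets thin filament length at the pointed end. It measured 10521, 10256, 10623 and 10255 in BPA muscles, against 12580, 11567, 12556 and 11275 in control muscles. Every BPA muscle lay below every control muscle, and the BPA values were closely spaced, with means of 10414 ± 187.2 in BPA and 11994 ± 672.7 in controls (SD, n = 4 each). The log2 difference was -0.20 (SE 0.082, 95% interval -0.38 to -0.02), and the limma adjusted p was 0.575. Other pointed-end genes overlapped between groups, with LMOD2 at 11711 ± 589 in BPA and 12966 ± 2738 in controls, and the capping gene TMOD4 at 18580 ± 2874 in BPA and 21994 ± 3481 in controls (SD, n = 4 each).

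Among genes of the Z-disc and its linkers, 1 of 11 estimates was above 0 and 10 below, with a median of -0.088, and none was called. Alpha-actinin crosslinks thin filaments at the Z-disc. ACTN3, restricted to fast fibres, measured 47924, 64022, 68394 and 65210 in BPA muscles, against 59501, 47039, 64240 and 76129 in control muscles. ACTN2, present in all fibres, measured 62968, 67953, 51563 and 62173 in BPA muscles, against 65455, 77320, 61873 and 69639 in control muscles. The groups overlapped for both. Myozenins bind alpha-actinin and calcineurin, and the fast form MYOZ1 measured 22460, 23838, 24482 and 23242 in BPA muscles, against 23555, 22387, 24350 and 26306 in control muscles. The slow form MYOZ2 measured 2118, 2843, 1095 and 1987 in BPA muscles, against 1443, 1782, 2024 and 2095 in control muscles. MYOZ1 was the steadiest of the 39, with a coefficient of variation of 5.31%, and MYOZ2 had both its extremes in BPA sheep.

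MYOZ3, another myozenin, measured 1491, 2027, 1415 and 1711 in BPA muscles, against 1932, 2009, 1577 and 2506 in control muscles. Its groups overlapped (log2 difference -0.27, SE 0.147, limma adjusted p = 0.713). FLNC, which encodes filamin C, an actin crosslinker at the Z-disc and the membrane, measured 108357, 102436, 89831 and 107261 in BPA muscles, against 91098, 204208, 127613 and 125349 in control muscles. Controls 908, 924 and 928 lay above all BPA muscles and control 902 lay near the bottom (log2 difference -0.37, SE 0.224, limma adjusted p = 0.745). XIRP2, an actin-binding gene of the same sites, had its highest value of 91408 also in control 908, and averaged 39778 ± 10810 in BPA and 57040 ± 25971 in controls (SD, n = 4 each). The intermediate filament gene DES averaged 147493 ± 6251 in BPA and 164132 ± 20674 in controls, and the titin cap gene TCAP averaged 53521 ± 9139 in BPA and 56121 ± 4686 in controls (SD, n = 4 each). LDB3 averaged 64423 ± 6076 in BPA and 68454 ± 5998 in controls, and the myotilin gene MYOT averaged 20800 ± 3840 in BPA and 20981 ± 3738 in controls (SD, n = 4 each).

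Of titin and the M-band genes, which crosslink thick filaments at the sarcomere centre, 1 of 4 estimates was above 0 and 3 below, and none was called. TTN averaged 3539273 ± 596407 in BPA and 4106096 ± 807174 in controls (SD, n = 4 each). MYOM2, the M-band gene tied to fast fibres, measured 18476, 26117, 20910 and 23141 in BPA muscles, against 23596, 15326, 18707 and 26288 in control muscles. Its groups overlapped almost wholly (log2 difference 0.10, SE 0.172, limma adjusted p = 0.924). MYOM1 averaged 32678 ± 3312 in BPA and 36938 ± 1995 in controls, and MYOM3 averaged 4437 ± 1031 in BPA and 5575 ± 2161 in controls (SD, n = 4 each).

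Fast and slow isoforms were also read animal by animal. Relative to the mean of the 8 muscles, the median deviation of the 11 fast isoforms was -0.347 log2 units in BPA 910, and BPA 910 was the lowest of the 8 for 8 of the 11. For MYH2 it was the highest. The 9 slow isoforms had a median deviation of -0.512 in BPA 977, which was the lowest of the 8 for 7 of the 9, and of -0.366 in control 902. They stood at 0.371 in BPA 918, the highest of the 8 for 6 of the 9, and at 0.241 in control 928. Over all 39 genes, BPA 910 was the lowest for 14, including ACTA1, MYLK2 and TCAP, which were assigned to neither fibre type. BPA 977 was the lowest for 11 of the 39, including ACTN2, MYOM3 and FLNC, also assigned to neither. Control 928 had the highest value for 16 of all 39 genes. The lowest and the highest slow isoform medians thus both belonged to BPA sheep. The median deviation over all genes tested lay between -0.01 and 0.01 in each muscle. Scaling by 1 size factor per library brings that median near 0, so it does not measure how particular these shifts are.

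**Figure D4:**
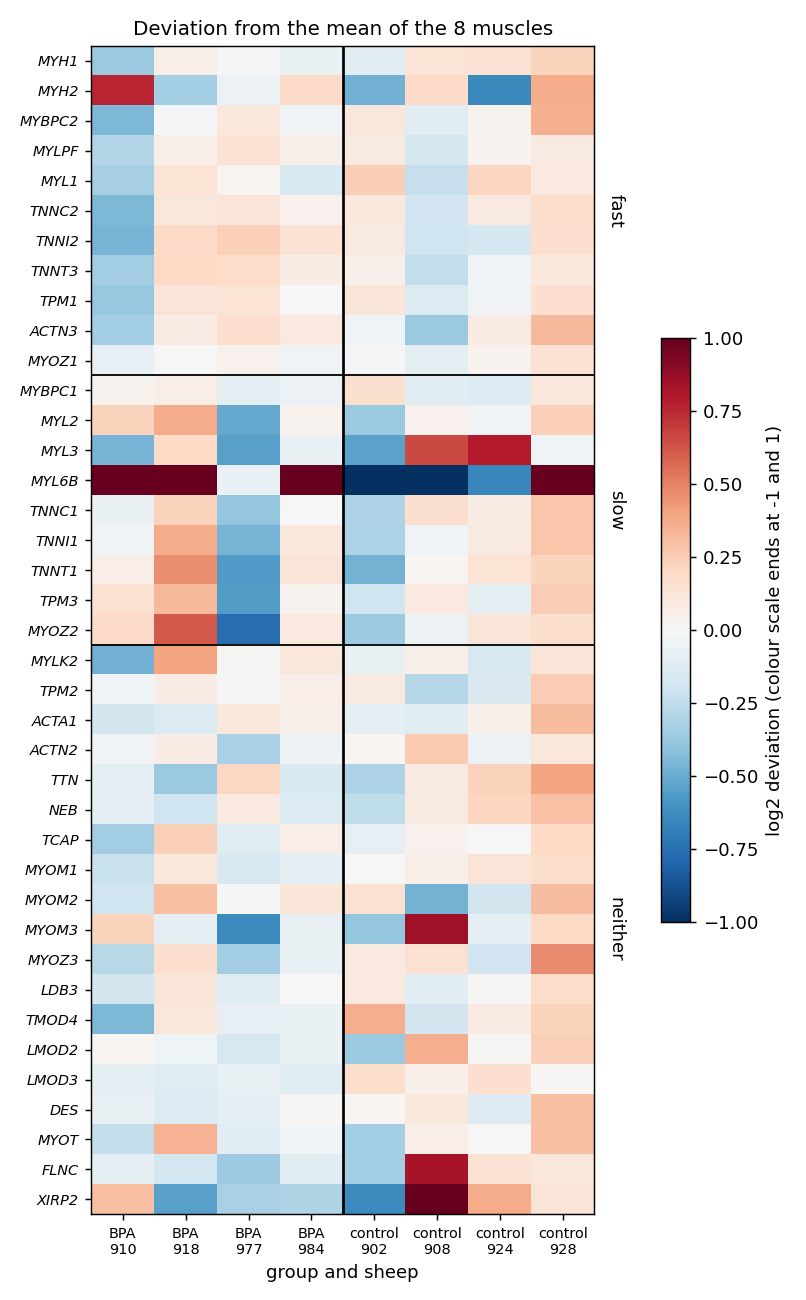
The log2 deviation of each gene (rows) from its mean over the 8 muscles is coloured for each sheep (columns), BPA left of control, with fast isoforms at the top, slow isoforms next and the other genes below. Lower values (blue) stand in most fast rows of BPA 910 and in most slow rows of BPA 977 and control 902.

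The balance of fast and slow forms was compared in 9 pairs, and in each pair the BPA and control muscles overlapped. The mean log2 ratio was higher in BPA in 5 pairs and lower in 4, with differences between -0.18 for MYBPC2 over MYBPC1 and 0.27 for MYL1 over MYL3. With 1 muscle left out, the MYBPC2 difference ran between -0.27 (without BPA 977) and -0.05 (without BPA 910), and the MYL1 difference between 0.02 (without control 908) and 0.58 (without control 902). The other 7 differences crossed 0 as single muscles were left out. For troponin I, the log2 ratio of TNNI2 to TNNI1 was 2.56, 2.81, 3.70 and 3.03 in BPA muscles, against 3.39, 2.83, 2.73 and 2.89 in control muscles. The extremes were both BPA sheep, and the means were 3.03 ± 0.49 in BPA and 2.96 ± 0.30 in controls (SD, n = 4 each). For the regulatory light chain, the log2 ratio of MYLPF to MYL2 was 0.90, 1.11, 2.08 and 1.45 in BPA muscles, against 1.89, 1.21, 1.5 and 1.28 in control muscles. BPA 977 had the highest ratio in 7 of the 9 pairs and BPA 910 the lowest in 6. The heights of these ratios depend on the lengths of both transcripts, so only their differences between animals are read. Ratios of the pair ACTN3 and ACTN2 set a fast form against one present in all fibres, with means of 0.00 ± 0.33 in BPA and -0.17 ± 0.38 in controls (SD, n = 4 each).

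**Figure D5:**
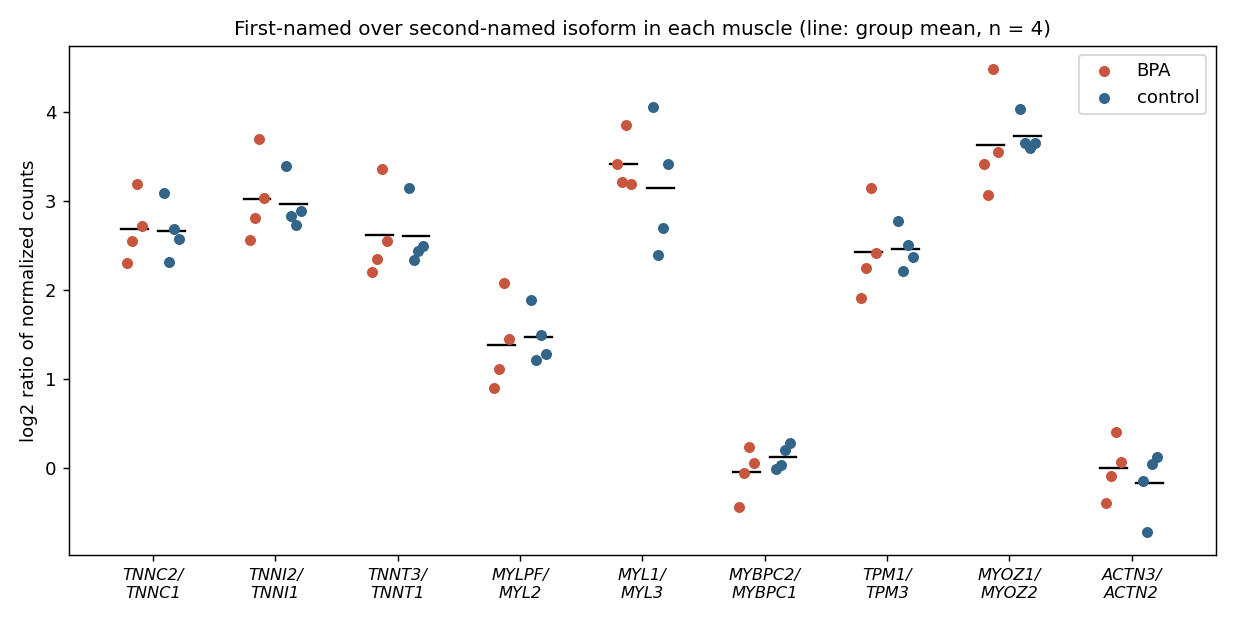
The log2 ratio of the first-named to the second-named isoform is plotted for 9 pairs, 1 point per muscle, with BPA in red left of control in blue and a line at each mean of 4. The groups overlap in each pair, and BPA 977 is the top point in 7 of the 9.

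Slow isoforms were followed across the 8 muscles in 4 gene pairs, with exact permutation p-values (two-sided) adjusted over the 4. TNNI1 and TNNT1 moved together (Pearson r = 0.98, exact permutation p = 4.96e-05, adjusted p = 0.000198, and Spearman rho = 0.98, p = 0.000397, adjusted p = 0.00159, n = 8). Without BPA 977 and control 902, the muscles farthest from the median of TNNI1, r was 0.95. For TNNC1 and MYL2, r was 0.88 (exact permutation p = 0.00642, adjusted p = 0.0128) and rho was 0.81 (p = 0.0218, adjusted p = 0.0436). Without BPA 977 and control 902, also the muscles farthest from the median of TNNC1, that r was 0.40. Leaving out the extremes narrows the range as well, so how far the relation rests on those animals cannot be told. Taken as deviations from group means, r was 0.93 for TNNC1 and MYL2 and 0.98 for TNNI1 and TNNT1, given as values only. On the values themselves, leaving out 1 of those animals took the adjusted p for TNNC1 and MYL2 past the threshold, to 0.0758 without BPA 977 and 0.0587 without control 902 (exact permutation). No relation of TNNI1 to the fast heavy chain gene MYH2 was detected (r = 0.09, exact permutation p = 0.83, adjusted p = 1.0, rho = 0.10, p = 0.84, adjusted p = 0.84), and r was -0.39 without those muscles. Its relation to its fast partner TNNI2 had r = 0.00 (exact permutation p = 1.0, adjusted p = 1.0) and rho = 0.17 (p = 0.703, adjusted p = 0.84), whereas over the 6 muscles without BPA 977 and control 902 r was 0.83.

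Beyond the 39, 61 other genes of contractile filaments, Z-disc and costamere, sarcomere assembly and fibre-type metabolism were found, and 58 were tested in muscle. None was called by limma, with 16 estimates above 0, 42 below and a median of -0.093. At an unadjusted p under 0.05 there were 5 (8.62%, against 7.77% of all genes tested), named here after their values were seen. TPM4, a tropomyosin of non-muscle cells and regenerating fibres, averaged 566.6 ± 72.04 in BPA and 430.0 ± 12.84 in controls (SD, n = 4 each, log2 difference 0.39, limma adjusted p = 0.277). Its groups did not overlap, as in 4.53% of all genes tested. The other 4 were lower in BPA, with limma adjusted p-values of 0.459 for the microtubule and Z-disc protein gene TRIM54, 0.496 for the chaperone gene CRYAB, 0.588 for the sarcoglycan gene SGCA and 0.591 for the Z-disc gene PDLIM5. Of the 26 other Z-disc and costamere genes 22 had estimates below 0, with a median of -0.15, and none was called. Genes of fast metabolism and calcium handling had 6 of 6 estimates below 0, with a median of -0.13, and those of slow fibres 4 above and 4 below, with a median of 0.013. Of 8 genes of sarcomere assembly, 2 had estimates above 0 and 6 below.

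Markers of other cell types were read in the same muscles. Hepatocyte genes were the only marker list with genes called, 3 of 24, against 0.129% of all genes tested. All 3 were lower in BPA. These were the fibrinogen chain genes FGA (713.5 ± 108.5 in BPA and 1633 ± 96.49 in controls, SD, n = 4 each, limma adjusted p = 0.000618), FGG (adjusted p = 0.000741) and FGB (adjusted p = 0.000896). All 24 hepatocyte estimates were below 0, against 50.5% of all genes tested. At an unadjusted p under 0.05 limma marked 12 of the 24, against 7.77% of all genes tested. The groups did not overlap in 8 of the 24, against 4.53% of all genes tested. The summed level of the 24 was 9339 to 19524 in BPA muscles and 17877 to 26751 in control muscles. None of the 24 was at 0 in all muscles. Over all 14706 genes tested, 7283 estimates were above 0. Macrophage genes had 10 of 10 estimates above 0 (summed level 1461 to 2562 in BPA, 1298 to 1917 in controls), fibroblast genes 12 of 14 (14561 to 24897 in BPA, 13144 to 20464 in controls) and endothelial genes 8 of 12 (20490 to 23237 in BPA, 18719 to 21012 in controls). Tendon genes had 5 of 7 above 0, adipocyte genes 7 of 10, smooth muscle and pericyte genes 8 of 12 and lymphocyte genes 8 of 9. Satellite cell genes had 3 of 4 above 0, Schwann cell genes 3 of 8, and skeletal fibre markers 1 of 5. In the satellite cell list the CHRDL2 groups did not overlap, and its log2 difference was 1.04 (limma adjusted p = 0.122). CHRDL2 averaged 96.05 ± 24.38 in BPA and 46.18 ± 11.37 in controls (SD, n = 4 each), and is named after its values were seen. The 1 erythroid gene tested, HBB, averaged 67.85 ± 75.92 in BPA and 3.43 ± 2.144 in controls (SD, n = 4 each, limma adjusted p = 0.224). Its groups did not overlap, as in 4.53% of all genes tested. The part of any of these cell types in the sarcomere gene values was not tested.

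In liver, 21 of the 39 genes had a mean of at least 10 and were tested, and none was called by limma, against 0.0% of all 15689 genes tested. The groups did not overlap in 2 of the 21, against 7.61% of all genes tested. At an unadjusted p under 0.05 limma marked these same 2, MYOM3 and TPM3, against 18.1% of all genes tested. With edgeR and DESeq2, 0 of 21 were called and 3 marked by each. Over all 15689 genes tested edgeR marked 2844 and DESeq2 marked 3276. Estimates were above 0 for 17 of the 21, with a median of 0.775, against -0.014 over all genes tested. The livers also fell into sets by depth that were uneven between the groups. BPA 918, 977 and 984 and control 902 held 4.39 to 10.64 M reads, of which the 39 genes took 0.0349 to 0.0984%, and BPA 910 and controls 908, 924 and 928 held 17.92 to 19.28 M, of which they took 0.0161 to 0.0182%. With a term for these sets in the limma fit, chosen after seeing the data, 14 of the 21 estimates were above 0, the median was 0.17 and 0 of 21 were called. TPM1 had the highest liver mean, at 547.2, 799.5, 845.8 and 1106 in BPA livers, against 4681, 618.6, 648.3 and 650.3 in control livers. Control 902 stood far above the other 7. TPM2 likewise measured 207.1, 262.3, 309.4 and 308.3 in BPA livers, against 831.0, 141.1, 187.0 and 232.9 in control livers. MYOM3, next by liver mean, measured 295.8, 364.4, 356.8 and 566.1 in BPA livers, against 284.5, 185.1, 173.5 and 209.4 in control livers. Every BPA liver lay above every control liver (log2 difference 0.87, SE 0.296, 95% interval 0.21 to 1.54, limma adjusted p = 0.256). TPM3 lay the other way, at 45.8 to 249.9 in BPA livers and 275.1 to 407.0 in control livers (log2 difference -1.20, limma adjusted p = 0.262). With the term for depth the differences were 0.60 for MYOM3 and -1.03 for TPM3 (limma adjusted p = 0.289 and 0.34).

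Liver values of muscle genes varied by library. BPA 984 was the highest of the 8 livers for 9 of the 21 genes, BPA 918 for 5 and control 902 for 4, and no other control for any. TTN in liver was 34.4, 605.9, 58.6 and 409.1 in BPA sheep, against 273.2, 24.8, 19.9 and 16.8 in controls. The other 18 genes had liver means under 10, and several were listed at 0 in single livers. Without the liver of BPA 910, TMOD4 (1.06, adjusted p = 0.0399) and MYOM3 (1.0, adjusted p = 0.0491) passed in limma, as did 16.5% of all genes tested in that setting.

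Whether the BPA effect differed between muscle and liver was tested for the same 21 genes in a fit over all 16 libraries. None was called, against 0.0% of all 13677 genes tested. At an unadjusted p under 0.05 limma marked 4 of the 21, MYOM3, MYOM1, TMOD4 and TPM3, against 19.5% of all genes tested. The lowest limma adjusted p was 0.202 for MYOM3. By the same unadjusted measure edgeR marked 5 of the 21, against 2932 of all 13677 genes tested, and called 0. MYOM3 had a difference of -1.16 (muscle minus liver, SE 0.397), with BPA estimates of -0.29 in muscle and 0.87 in liver. Without sheep 910, TMOD4 (-1.20, adjusted p = 0.0134), MYOM3 (-1.41, adjusted p = 0.0272) and ACTN2 (-1.69, adjusted p = 0.0434) passed in limma, as did 22.1% of all genes tested in that setting.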

How the data were processed

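Libraries came from RNA cleared of ribosomal transcripts, prepared with a kit for low input, per the labels' protocols. Trimmomatic, FastQC and DESeq2 1.24.0 were used, per the submitters' processing notes. For the aligner, counter, annotation, genome build and strandedness the entry is "not given in the sources used here", so near-identical and overlapping genes are uncertain. The authors deposited a normalized signal per gene, apparently reads scaled by 1 factor per library. No library had under 99.9965% of values within 0.1 read of a whole multiple of 1 step. Those multiples were taken as recovered reads. Totals are given with the groups. Names came from the deposited table and RefSeq genes (assembly ARS-UI_Ramb_v3.0).

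Genes averaging 10 or more over the 8 libraries of a tissue were fitted within it by limma 3.58.1 under R 4.3.3, as log2(value + 1), with an intensity trend and Benjamini-Hochberg adjustment over all genes tested at a threshold of 0.05. Fold changes on this scale understate those of low genes. A fit of all 16 libraries tested muscle against liver and the difference between BPA effects. The reads were also tested with edgeR 4.0.16 and DESeq2 1.42.0. On them edgeR called 19 genes in muscle and DESeq2 131. The limma fits within each tissue were also run on simulated counts, with a minimum recovery of changed genes required in muscle only. The fit of all 16 libraries, edgeR and DESeq2 were not run on simulated counts.

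Members and gene lists were chosen with earlier results of these data known. Values in each library are given for both forms of each fast and slow pair, the myosin heavy chains and the 3 genes with the smallest p in each direction, and other genes by mean, range or count. Of 6 gene pairs set for correlation, 4 could be measured. The alternatives were other pseudocounts, filters, scalings and fits, and each library left out. By the labels, liver and muscle with 1 sheep number come from 1 animal and are paired. The deviations of an animal from its group means correlated between its tissues by -0.10 to 0.12 across genes, so the pairing rests on the labels.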

Additional observations from a re-analysis of the deposited data

Results flagged for a closer look

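TNNC2, the fast troponin C gene, measured 119879 in the muscle of BPA 910, far below the other 3 BPA muscles at 168417 to 178421. The gap to the nearest of them, as a share of the range of the group, was just above the critical value for 4 samples (Dixon test). It was the only value picked out in 78 groups checked, and chance alone picks out about 1 in 20.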

How the results depend on the processing

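In muscle, 0 of the 39 genes was called under any setting run. The lowest adjusted p of any of them was 0.1 with sample quality weights in limma. Genes called in muscle numbered 131 with DESeq2, 377 with quality weights, 0 in the fit of all 16 libraries, and 11 to 31 when each library was left out (31 without BPA 910, 11 without BPA 984). In liver these were 190, 9588, 2299 and 0 to 2595, where 15689 genes were tested with all libraries in. Sarcomere genes called in liver were 15 of the 21 tested with weights and 3 of the 21 in the fit of all 16 libraries. With a library left out they were 0 to 2. Without BPA 910, 2595 genes (16.5% of all tested) were called, 2 of them sarcomere genes. For the difference between tissues, leaving out an animal gave 0 to 3020 genes, 0 to 3 of them sarcomere genes (3020, or 22.1% of all genes tested, without sheep 910, 4 without 902, 1 without 908). In liver 18 of the 39 genes were too low to be tested. With the animal as a replicate block, 11091 genes passed between tissues (39 sarcomere genes) and 0 differed in BPA effect. No block applies inside 1 tissue. Estimates near 0 changed sign in muscle: MYLPF (0.028 with weights), TNNI1 (0.004 with TMM factors computed without contractile genes, 0.015 with edgeR, 0.008 with DESeq2, 0.025 with weights), TPM3 (0.010 with edgeR, 0.002 with DESeq2), ACTN3 (0.001 with TMM factors, 0.013 without contractile genes, 0.046 with weights) and MYOT (0.001 with TMM factors without contractile genes). The cause was not tested. With a library left out, estimates crossed 0 for MYBPC1 (-0.067 to 0.030), MYLPF (-0.082 to 0.074), MYL2 (-0.053 to 0.241), MYLK2 (-0.106 to 0.187), TNNC1 (-0.227 to 0.004), TNNC2 (-0.162 to 0.052), TNNI1 (-0.136 to 0.144), TNNI2 (-0.013 to 0.222), TNNT1 (-0.104 to 0.243), TNNT3 (-0.014 to 0.184), TPM1 (-0.115 to 0.058), TPM2 (-0.047 to 0.133), TPM3 (-0.139 to 0.156), ACTA1 (-0.131 to 0.010), ACTN3 (-0.124 to 0.114), TCAP (-0.173 to 0.021), MYOM2 (-0.043 to 0.217), MYOZ1 (-0.073 to 0.005), MYOZ2 (-0.127 to 0.332) and MYOT (-0.131 to 0.086). Correlations with a library left out, chosen after seeing the data, ran from 0.78 to 0.96 for TNNC1 and MYL2, -0.12 to 0.30 for TNNI1 and MYH2, and -0.21 to 0.38 for TNNI1 and TNNI2.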

Other observations

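Some further contractile genes, named here after their values were seen, varied widely by animal. The cardiac actin gene ACTC1 measured 285.2, 234.1, 151.6 and 234.3 in BPA muscles, against 131.5, 2414, 506.9 and 213.4 in control muscles, so that control 908, also the highest for XIRP2 and FLNC, stood apart (log2 difference -0.96, limma adjusted p = 0.783). MYH8, the perinatal myosin heavy chain gene, was highest in BPA 910, at 380.0, 86.72, 51.93 and 175.9 in BPA muscles, against 62.09, 124.7, 123.2 and 71.13 in control muscles (limma adjusted p = 0.833). PVALB, a calcium buffer of fast fibres, ranged between 56.83 and 387.4 in BPA muscles and between 59.84 and 667.2 in control muscles (limma adjusted p = 0.84).

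The locus LOC442995, which RefSeq leaves without a gene name, was also chosen after its values were seen. It measured 294239, 329912, 193478 and 293122 in BPA muscles, against 221244, 318024, 315988 and 323240 in control muscles. As with TNNI1 and TNNT1, BPA 977 and control 902 were the lowest of the 8 and BPA 918 the highest (log2 difference -0.10, limma adjusted p = 0.942). The slow isoforms MYBPC1, MYL3 and TNNC1 had their highest values in controls. Another unnamed locus, LOC101111980, measured 5047, 4192, 7421 and 5442 in BPA muscles, against 6045, 16800, 8515 and 2246 in control muscles (log2 difference -0.30, limma adjusted p = 0.914). What either locus encodes was not tested.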
